A study of Homo sapiens with 6 samples.

Results

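Contacts captured with an antibody to ARID1A were compared with contacts captured with an antibody to H3K27ac in the same cells at the same time. The members are the 4 libraries whose titles name day 3, out of 6 in the series: 2 for H3K27ac and 2 for ARID1A. All 4 come from G401, an established human rhabdoid tumour cell line that lost SMARCB1 and here carries a doxycycline-inducible copy of it. All 4 received doxycycline at 1 μg/ml for 3 days and are labelled SMARCB1 +/+. The antibody is therefore the only labelled difference between the groups, and SMARCB1 re-expression and doxycycline are common to both. The labels do not say that replicates came from separate cultures, so every p-value reflects only how far these libraries differ from each other, and that scatter may be technical. The remaining 2 libraries of the series are H3K27ac at day 0 in G401 labelled SMARCB1 -/-. They served only to mark where an H3K27ac anchor lay before SMARCB1 returned.

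H3K27ac is acetylation of a histone tail that marks active enhancers and promoters. ARID1A is a subunit of the canonical BAF form of SWI/SNF, a complex that slides or evicts nucleosomes and opens chromatin, much of it at enhancers. SMARCB1 is a core subunit of SWI/SNF, and its loss defines rhabdoid tumours. HiChIP ligates DNA ends that lie close together in the nucleus and then enriches, with an antibody, the ligated fragments that carry a chosen protein or mark. Its output is a list of loops, each a pair of DNA segments called anchors, with the number of paired-end tags (PETs) that joined them. An ARID1A library is enriched for contacts of DNA that carries ARID1A, and an H3K27ac library for contacts of DNA that carries the mark.

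H3K27ac replicates 1 and 2 listed 162010 and 162167 loops with 929128 and 982141 PETs. ARID1A replicates 1 and 2 listed 157578 and 164053 loops with 435210 and 467487 PETs. The ARID1A lists were thus about as long as the H3K27ac lists and far thinner. Thinned to 435210 PETs each, the H3K27ac libraries kept 114335 and 111961 loops, against 157578 and 157426 in the ARID1A libraries, so at equal depth ARID1A contacts were spread over more pairs of regions. They also joined more anchors: 26283 and 26350 in the ARID1A libraries, covering 201.2 and 201.5 Mb, against 17363 and 17377 for H3K27ac, covering 130.9 and 131.0 Mb. The replicates of an antibody list nearly the same anchors, so the closeness of these anchor numbers does not measure replicate spread. The exact two-sided permutation test over libraries gave p = 0.33 for thinned loops, the smallest it can give with n = 2 against 2, and the same holds for every difference between library values in this text whose libraries do not overlap.

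Anchors of the 4 lists that shared 1 bp or more were merged, which turned 43749 distinct anchors into 29794 merged ones with a median width of 6003 bp. ARID1A alone accounted for 13509 of them, or 45.3%. Another 12369, or 41.5%, were called with both antibodies, and 3916, or 13.1%, with H3K27ac alone. Most H3K27ac anchors (76.0%) thus overlapped an ARID1A anchor, whereas 47.8% of ARID1A anchors overlapped an H3K27ac anchor. Anchors called with both were wider, with a median of 8779 bp against 4948 bp for ARID1A alone and 5000.5 bp for H3K27ac alone. The classes also differed in their state before SMARCB1 returned: an H3K27ac anchor of the day 0 libraries lay at 47.3% of anchors called with both, at 31.8% of those called with H3K27ac alone and at 2.60% of those called with ARID1A alone.

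A region with no anchor for an antibody was not measured with it, and an unlisted loop is not a measured absence. Contacts were therefore first described by class of anchor. Loops joining a pair of anchors called with both antibodies held 73.4% and 73.5% of the H3K27ac PETs in merged loops and 45.2% and 45.5% of the ARID1A PETs. The difference of the means was -28.1 percentage points (exact permutation p = 0.33, n = 2 per antibody). Loops joining such an anchor to one called with a single antibody held 23.0% ± 0.0581 of H3K27ac PETs and 41.2% ± 0.110 of ARID1A PETs (SD, n = 2). Loops between anchors that were both called with a single antibody held 3.57% ± 0.0325 and 13.4% ± 0.0576. In all, 54.7% of ARID1A PETs and 26.5% of H3K27ac PETs had an end outside the anchors called with both.

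**Figure D1:**
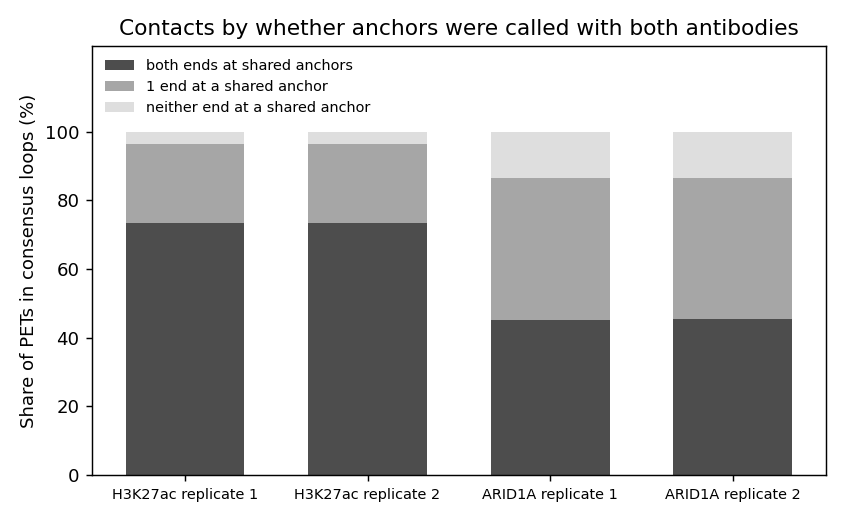
Share of each library's PETs (%) in merged loops whose ends are both, singly or not at anchors called with both antibodies, 1 stacked bar per day 3 library. Shared anchors hold about 73.5% of H3K27ac PETs and about 45.3% of ARID1A PETs, and replicates of an antibody nearly coincide.

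Contacts captured with ARID1A were shorter. The median span, weighted by PETs and measured between anchor centres, was 101.1 and 99.9 kb with H3K27ac, against 82.9 and 83.2 kb with ARID1A. The means differed by -17.4 kb (exact permutation p = 0.33, n = 2 per antibody). Contacts of 5 to 20 kb held 12.003% of H3K27ac PETs and 15.8% of ARID1A PETs, and contacts of 1000 to 2000 kb held 5.80% and 3.96%. The share of PETs in contacts longer than 100 kb was 50.1% ± 0.253 with H3K27ac and 45.3% ± 0.108 with ARID1A (SD, n = 2). This difference depended on which loops were counted. Among loops with 2 or more PETs the share was 46.7% with H3K27ac and 35.3% with ARID1A. Among loops with a deposited value of 0.01 or less it was 48.0% and 48.1%, and the median spans differed by -2.09 kb. Within that last set the longest bin still differed, with 5.81% of H3K27ac PETs and 1.80% of ARID1A PETs at 1000 to 2000 kb, while the bin of 200 to 500 kb went the other way, at 17.4% and 24.3%.

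The shorter span was also seen between regions called nearly alike. Matched anchors are merged anchors at which the bases called with each antibody overlap by 70% or more of their union, and there were 4839 of them. In loops between matched anchors the median span was 108.9 and 106.5 kb for H3K27ac and 89.2 and 89.95 kb for ARID1A, a difference of -18.1 kb. Contacts of 1000 to 2000 kb held 5.15% ± 0.303 of the H3K27ac PETs and 3.24% ± 0.0601 of the ARID1A PETs in these loops (SD, n = 2). At the short end, contacts of 5 to 20 kb held 5.81% ± 0.0712 and 7.46% ± 0.244.

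**Figure D2:**
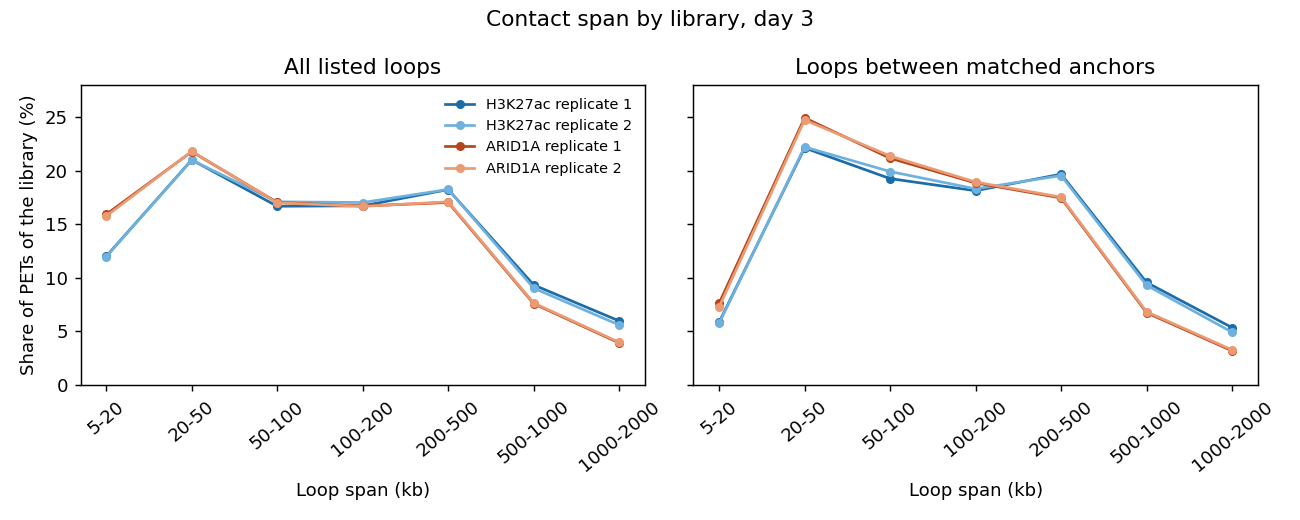
Share of each library's PETs (%) by loop span in kb, for all listed loops and for loops between matched anchors, 1 line per day 3 library. In both panels the ARID1A libraries lie above the H3K27ac libraries at 5 to 50 kb and below them from 200 kb on.

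Anchors had fewer partners with ARID1A, and the difference was small at equal depth. Thinned to the same number of PETs, an anchor had on average 13.27 and 13.00 partner anchors with H3K27ac, against 11.99 and 11.98 with ARID1A, a difference of -1.15. Anchors called with both antibodies had 13.5 ± 0.189 partners with H3K27ac and 13.997 ± 0.00791 with ARID1A (SD, n = 2), so there the order was turned. Their partners were of different kinds: counting only partners that were themselves called with both antibodies, they had 11.2 ± 0.152 with H3K27ac and 8.35 ± 0.0185 with ARID1A. Anchors called with a single antibody had 9.65 ± 0.164 partners for H3K27ac and 9.60 ± 0.0214 for ARID1A.

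The 5 anchors with most partners for either antibody were all called with both, and 1 of them was in both lists. The leading ARID1A anchor, at 1p36.11 (chromosome 1, 27317644 to 27368852, over TRNP1, a nuclear protein of neural progenitors), had 67 and 76 partners with ARID1A and 70 and 56 with H3K27ac. It is the one in both lists. The leading H3K27ac anchor, at 11q13.1 (chromosome 11, 65228780 to 65279569, over MALAT1, an abundant nuclear long non-coding RNA), had 77 and 71 partners with H3K27ac and 50 and 42 with ARID1A. An anchor at 6p22.1 inside a histone gene cluster had 73 and 70 partners with H3K27ac and 38 and 26 with ARID1A, and was called over 39213 bp and 13664 bp. An anchor at 2p22.1 within SLC8A1, a sodium-calcium exchanger, went the other way, with 27 and 26 partners for H3K27ac and 62 and 60 for ARID1A, and was called over 42178 bp with H3K27ac and 114541 bp with ARID1A. The partner numbers of single anchors, here and below, come from the libraries thinned to 435210 PETs each. Gene names here and below are background knowledge of the hg19 map, given to place a region. No hg19 gene annotation was used, so whether an anchor covers a start, an exon or an intron was not read.

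The contacts were also distributed differently over the chromosomes. Chromosome 4 took 3.01% and 3.06% of contact ends with H3K27ac, against 4.48% and 4.42% with ARID1A, a ratio of means of 1.47. Chromosome 3 had a ratio of 1.35, chromosome 13 of 1.27 and chromosome 2 of 1.20. At the other end, chromosome 19, the most gene-dense, took 5.87% and 5.87% of H3K27ac ends and 4.05% and 4.20% of ARID1A ends, a ratio of 0.703. Ratios were 0.674 on chromosome 21, 0.698 on 16, 0.741 on 20, 0.756 on 17, 0.782 on 22 and 0.586 on X, which held 0.504% and 0.530% of H3K27ac ends. The libraries of the antibodies did not overlap on 21 of 22 autosomes. Across the 22 autosomes the ratio fell with the number of protein-coding genes per Mb (Spearman rho -0.54), given as a description, since chromosomes share the same libraries. Chromosomes 18 and 21 depart from it, being gene-poor with ratios of 0.970 and 0.674.

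**Figure D3:**
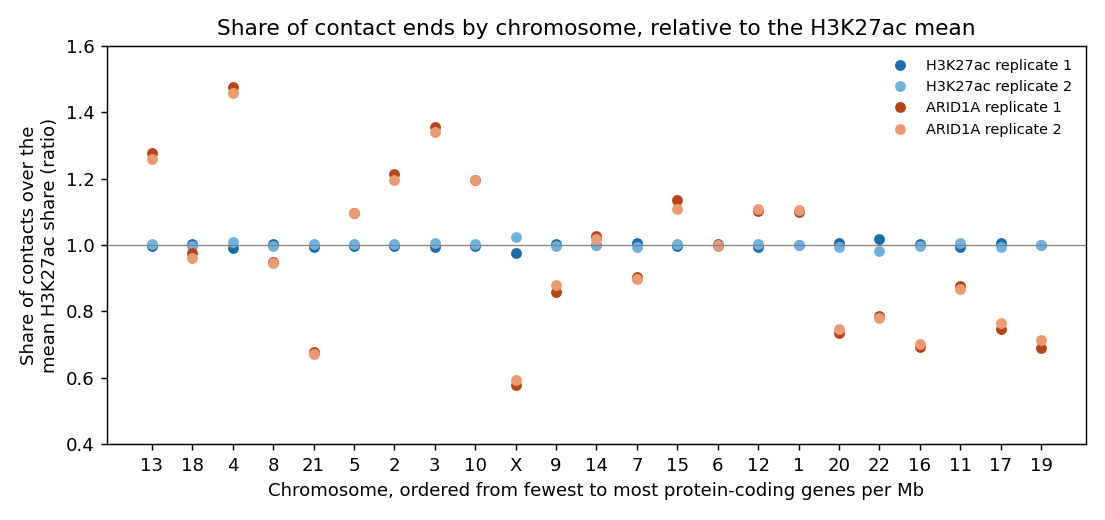
Share of contact ends on each chromosome divided by the mean H3K27ac share (ratio), 1 point per day 3 library, with chromosomes ordered by protein-coding genes per Mb. ARID1A points lie highest on chromosome 4 (ratio 1.47) and lowest on chromosome X (0.586), and replicates of an antibody nearly coincide.

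Smaller stretches differed by more. Of 219 cytogenetic bands that took 0.2% or more of the ends with either antibody, 33 had an ARID1A share under 0.5 of the H3K27ac share and 39 had one over 2 times as large. A band could enter through a single antibody, which favours extreme ratios, so these numbers are a description. The bands named below all did: 6q16.3, 4q25 and 12p11.23 through ARID1A, and 9q31.3, 21q22.3 and 17q25.3 through H3K27ac. The band 6q16.3 took 0.0228% and 0.01998% of H3K27ac ends and 0.201% and 0.202% of ARID1A ends, a ratio of 9.41. The band 4q25 took 0.0501% and 0.0512% against 0.291% and 0.312%, a ratio of 5.95, and the ratio was 4.88 at 12p11.23. In the other direction, 9q31.3 took 0.320% and 0.323% of H3K27ac ends and 0.0335% and 0.0332% of ARID1A ends, a ratio of 0.104. The band 21q22.3 took 0.271% and 0.277% against 0.0388% and 0.0368%, a ratio of 0.138, and 17q25.3 had a ratio of 0.222. The anchors called in a band went with its share in some of these bands and not in others. In 4q25 there were 44 anchors called with ARID1A alone, 19 with both and 7 with H3K27ac alone, and in 21q22.3 the numbers were 14, 29 and 27. In 17q25.3 they were 38, 52 and 41, and in 9q31.3, the lowest of the bands, 16, 10 and 10. Shares by band, like those by chromosome, count ends at all merged anchors, those not measured with the other antibody included. In 9q31.3 a single anchor called with H3K27ac alone held 1566 and 1696 PETs. In 6q16.3 a single anchor called with ARID1A alone held 323 and 364. Over all merged anchors the shares were 45.3%, 41.5% and 13.1%.

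The strongest regions seen with a single antibody can be described but not tested. Among ARID1A anchors without an H3K27ac anchor, the most contacted lay at 15q22.31, between SMAD6 and SMAD3, an inhibitor and a mediator of TGF-beta family signalling. It (chromosome 15, 67119711 to 67158387) held 388 and 422 PETs in the ARID1A libraries. An anchor at 14q22.2 (chromosome 14, 54665968 to 54701000), between BMP4, a secreted growth factor, and CDKN3, followed with 388 and 384, and one at 17q23.1 over VMP1, an autophagy protein, with 351 and 364. The neighbour of the first at 15q22.31 (67159610 to 67198308) came next with 326 and 370. Others in the leading 8 lay at 10p12.31 over SKIDA1 and at 1p34.3 within MACF1, a cytoskeletal crosslinker. Of these 8 regions, 6 carried an H3K27ac anchor at day 0, against 2.60% of the class. They were called over 35032 to 57691 bp, against a class median of 4948 bp, and an overlap of 1 bp counted. An H3K27ac anchor of day 3 lay close to several, at a gap of 1.77 kb from the one in MACF1 and 2.25 kb from the one over VMP1.

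Among H3K27ac anchors without an ARID1A anchor, the most contacted lay at 14q24.1 within RAD51B, a homologous recombination gene (chromosome 14, 68568464 to 68617187), with 2287 and 2309 PETs. An anchor at 7p15.2 (chromosome 7, 25881214 to 25912056) held 2121 and 2311 PETs, and one at 12q14.3 within MSRB3, a methionine sulfoxide reductase (chromosome 12, 65683050 to 65739355), held 1817 and 1863. An H3K27ac anchor had been present at day 0 at 7 of the leading 8, against 31.8% of the class. These 8 were called over 30842 to 60557 bp, against a class median of 5000.5 bp. The nearest ARID1A anchor lay between 0.844 and 55.1 kb away. The region within RAD51B shows how closely the calls alternate: 2 of the leading 8 H3K27ac regions lie in that gene, and so does an anchor at 68705235 to 68738466 that was called with both and is among the 12 with the smallest p higher for ARID1A, with 76.1 and 75.2 CPM for H3K27ac and 438 and 489 CPM for ARID1A. CPM are PETs divided by the library's PETs in merged loops and multiplied by 1000000.

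Where both antibodies had an anchor, PETs per anchor were compared with edgeR's quasi-likelihood test, using only loops whose ends were both called with both antibodies. A call needed a Benjamini-Hochberg adjusted p under 0.05. Of 11105 anchors tested, 63.7% were called: 3506 (31.6%) higher and 3569 (32.1%) lower for ARID1A. The even split depends on which anchors enter. Of those tested, 31.3% reached the minimum of 10 PETs only in the H3K27ac libraries. Among the 7480 that reached it in all 4 libraries, a set chosen after seeing the data that leaves out anchors near 0 with either antibody, 3251 were higher and 1957 lower. With all libraries thinned to the same depth, 2978 of 9836 anchors were higher and 3042 lower. Higher and lower are relative to the contacts within these shared loops. ARID1A libraries hold a smaller part of their PETs there, and with library totals as the scale 1818 were higher and 5868 lower, with a median log2 fold change of -0.67 in place of -0.04. Called width went with the fold. The Spearman correlation between log2 fold change and log2 ratio of called widths was 0.667 over the 11105 anchors, given as a description. Among 157 anchors called over more than 4 times the width with ARID1A, 96.2% were called higher and none lower at the same threshold, with a median log2 fold change of 2.51.

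The anchors named next were taken by smallest p where the antibodies' libraries did not overlap, which held at 84.2% of all anchors tested. At 17q21.33, 3 neighbouring anchors within SPAG9, a scaffold protein of JNK signalling, were higher for ARID1A. The first (chromosome 17, 49074824 to 49115164) had 51.1 and 35.4 CPM with H3K27ac and 554 and 590 CPM with ARID1A, a log2 fold change of 4.39 ± 0.14 (SE), but was called over 5537 bp with H3K27ac and 40340 bp with ARID1A. An anchor at 2p22.1 within MAP4K3, a kinase gene (chromosome 2, 39505198 to 39538457), had 43.2 and 36.5 CPM against 428 and 381 CPM, a log2 fold change of 4.001 ± 0.156. Others of the 12 lay within SLC8A1 at 2p22.1, in SLMAP at 3p14.3, over TSC22D2 at 3q25.1, in CRY1, a circadian repressor, at 12q23.3, over RPE65 at 1p31.2 and in RAD51B. All 12 were called over more bases with ARID1A, against 7071 of all 12369 anchors called with both. An H3K27ac anchor lay at 5 of 12 at day 0, against 47.3% of all called with both.

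In the other direction, the anchor at 9q33.3 over LMX1B, a LIM-homeodomain transcription factor (chromosome 9, 129372161 to 129400338), had 1098 and 1156 CPM with H3K27ac and 45.0 and 41.8 CPM with ARID1A, a log2 fold change of -4.03 ± 0.14 (SE). It was called over 26515 bp with H3K27ac and 11165 bp with ARID1A, and its ARID1A values rest on 19 and 19 PETs. A pair of anchors at 6p22.1 lay in the histone gene cluster. The smaller of them (chromosome 6, 27847213 to 27865860) had 994 and 938 CPM with H3K27ac and 14.2 and 26.4 CPM with ARID1A, a log2 fold change of -4.88 ± 0.18. It was called over 17278 bp with H3K27ac and 4498 bp with ARID1A, and its ARID1A values rest on 6 and 12 PETs. At 17q21.2, 3 neighbouring anchors reached from STAT3 and CAVIN1 to ATP6V0A1, with log2 fold changes in that order of -1.87, -3.29 and -2.23. The anchor over ZIC2 and ZIC5 at 13q32.3, a pair of zinc-finger developmental regulators, had 1715 and 1746 CPM against 289 and 326 CPM. An H3K27ac anchor had been present at day 0 at 12 of these 12, against 47.3% of all anchors called with both. An overlap of 1 bp counted, and width was not accounted for. Of these 12, 1 was called over more bases with ARID1A, against 7071 of all 12369 called with both. All 24 regions of both directions kept their sign and their call in every alternative that could test them.

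Matched anchors take most of the difference in called width away, though not all: over the 4273 tested the correlation of fold with width ratio was 0.371. Of them, 56.0% were called, 874 (20.5%) higher and 1517 (35.5%) lower for ARID1A, with a median log2 fold change of -0.23. Of the matched anchors tested, 34.0% reached the minimum of 10 PETs only in the H3K27ac libraries. Among the 2795 that reached it in all 4 libraries, 807 were called higher and 898 lower. That set leaves out 1452 anchors that reached the minimum in both H3K27ac libraries only, and 7 in both ARID1A libraries only. With thinned libraries 673 of 3718 were higher and 1286 lower, so lower calls still outnumbered higher ones at equal depth. The libraries of the antibodies did not overlap at 84.7% of the matched anchors. Folds were moderate for most: 22 called anchors were more than 4-fold higher and 214 more than 4-fold lower, numbers that became 16 and 29 among the 2795 at the minimum in all 4 libraries. Fitted on the matched anchors alone, the split was 1126 higher and 1158 lower, and with library totals it was 244 and 2660.

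The matched anchors that stood highest for ARID1A lay on 8 chromosomes. An anchor at 2q32.1 within NCKAP1, a subunit of the WAVE actin-regulating complex (chromosome 2, 183807780 to 183818889), had 15.9 and 13.96 CPM with H3K27ac and 102 and 70.4 CPM with ARID1A. Its log2 fold change was 3.17 ± 0.30 (SE; edgeR quasi-likelihood test, adjusted p = 3.8e-18). An anchor at 16q12.1 within TENT4B, a non-canonical poly(A) polymerase (chromosome 16, 50211151 to 50222277), had 22.7 and 23.6 CPM against 123 and 108 CPM, with a log2 fold change of 2.97 ± 0.25. At 7q21.11 within PCLO, a presynaptic scaffold protein (chromosome 7, 82426061 to 82453374), the values were 96.5 and 80.5 CPM against 281 and 313 CPM. The libraries of the antibodies do not overlap at any of these, and this was a condition of the choice. The anchor at 2q32.2 within COL5A2, a fibrillar collagen gene (chromosome 2, 189954563 to 190000420), was the most contacted of the 12, with 251 and 255 CPM against 613 and 632 CPM and a log2 fold change of 1.96 ± 0.09. It was also called over 32133 bp with H3K27ac and 45857 bp with ARID1A, and had on average 22 and 51.5 partners.

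The other 8 of the 12 had log2 fold changes between 1.92 and 2.37. They lay at 13q21.31, at 4q34.1, in DDAH1 at 1p22.3, over SNHG11 at 20q11.23, in PLEKHM3 at 2q33.3, in MOSMO at 16p12.2, near TSC22D2 at 3q25.1 and in METAP1D at 2q31.1. The DDAH1 anchor, in a gene whose product degrades a nitric oxide synthase inhibitor, had 40.9 and 40.8 CPM with H3K27ac and 123 and 128 CPM with ARID1A. All 12 were called over more bases with ARID1A, against 7071 of all 12369 anchors called with both. An H3K27ac anchor lay at 5 of 12 at day 0, against 2344 of the 4273 matched anchors tested.

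Among the 12 matched anchors that stood lowest for ARID1A, 6 lay on chromosome 11, of which 4 at 11q13.1. Chromosome 11 held 247 of the 4273 matched anchors tested, and 44.5% of those 247 were called lower, against 35.5% over all. The lowest of the 12 was at KAT5, which encodes the TIP60 histone acetyltransferase (chromosome 11, 65477855 to 65481716). It had 117 and 175 CPM with H3K27ac and 7.10 and 8.81 CPM with ARID1A, a fitted log2 fold change of -3.52 ± 0.37 (SE), and the ARID1A values rest on 3 and 4 PETs. At 10 of the 12, this one included, neither ARID1A library reached 10 PETs. They entered the test only through the H3K27ac libraries, where they are high, and their folds and places are given as a description. The 12 matched anchors named above as higher reached 10 PETs in all 4 libraries, so the sets were not chosen on like terms. The anchor by CFL1, which encodes the actin-severing protein cofilin (65624538 to 65631003), had 422 and 446 CPM against 18.9 and 41.8 CPM. The anchor over RCOR2, a subunit of a REST corepressor complex (63681191 to 63689097), had 388 and 405 CPM against 26.0 and 30.8 CPM, and its partners numbered 51 with H3K27ac and 10 with ARID1A on average. The anchor over OTUB1, a deubiquitinase, had 220 and 203 CPM against 21.3 and 13.2 CPM. That the libraries of the antibodies do not overlap at these anchors was a condition of the choice, and it held at 84.7% of the matched anchors.

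At 1p36.33 the anchor over SAMD11 and NOC2L (chromosome 1, 869229 to 883911) held 87 and 100 PETs in the H3K27ac libraries, against 2 and 3 in the ARID1A libraries, a fitted log2 fold change of -3.48 ± 0.43 (SE). The others lay at UAP1L1 at 9q34.3, KLC2 at 11q13.2, DEAF1 at 11p15.5, MZF1 and a second place at 19q13.43, and a pair of places at 20q13.33, the second of them near LAMA5, a laminin chain gene. The 12 had log2 fold changes between -3.52 and -2.95, and the ARID1A libraries held between 2 and 19 PETs at each. An H3K27ac anchor had been present at day 0 at 11 of 12, against 2344 of the 4273 matched anchors tested. Since 10 of the 12 entered only through the H3K27ac libraries, where they are high, that comparison is not on like terms. Of the 12, 2 were called over more bases with ARID1A, against 7071 of all 12369 anchors called with both. The 12 higher anchors kept sign and call in each of the 12 or 13 settings that could test them, with a highest adjusted p of 0.035 by these edgeR and DESeq2 fits. The same held for the 2 lower anchors where an ARID1A library reached 10 PETs, at CFL1 and RCOR2, in all 13 settings.

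**Figure D4:**
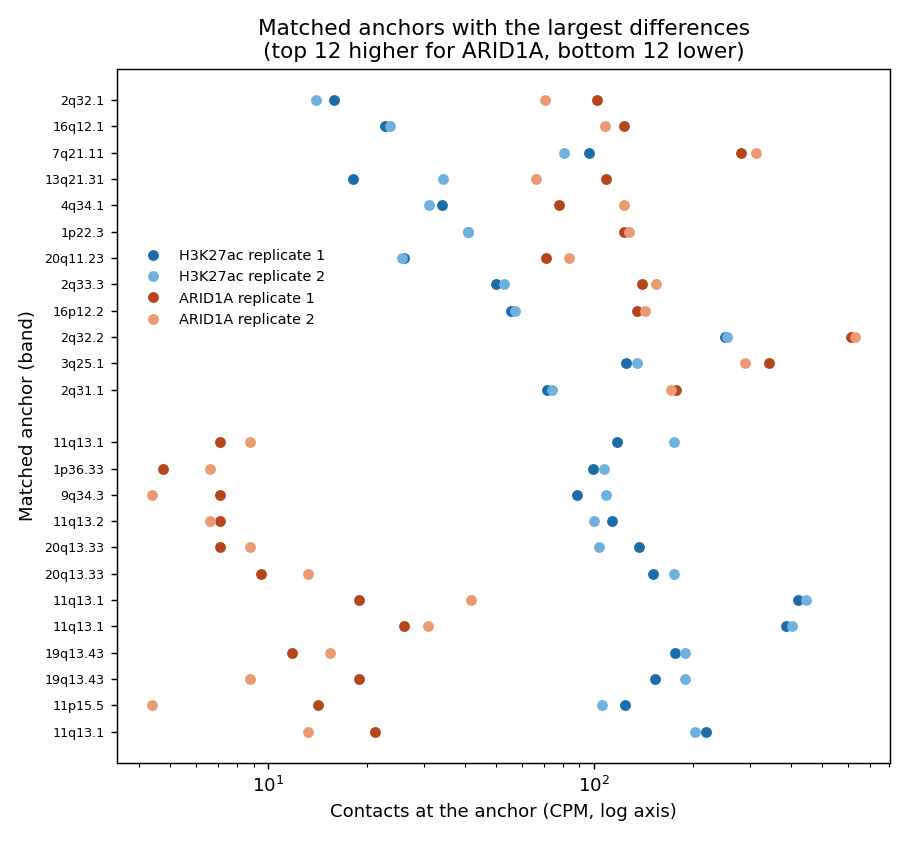
Contacts (CPM, log axis) in each of the 4 day 3 libraries at the 24 matched anchors with the largest differences, named by band, with the 12 higher for ARID1A above and the 12 lower below. Each point is 1 library, and the ARID1A points lie to the right of the H3K27ac points in the upper rows and to the left in the lower rows, as the choice of anchors requires.

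Calls among matched anchors differed with the kind of chromosome band. Giemsa staining sorts bands from light, which are gene-rich and early replicating, to dark, which are gene-poor and late replicating. In light bands (gneg), 16.7% of 2555 matched anchors were higher for ARID1A and 41.1% lower, against 20.5% and 35.5% over all matched anchors, with a median log2 fold change of -0.37. In the darkest bands (gpos100), 37.7% of 276 were higher and 11.96% lower, with a median of 0.29. The classes between followed in order of stain from gpos25 to gpos75, with medians of -0.33, -0.07 and 0.20. Among anchors at the minimum in all 4 libraries the medians were -0.12 in light bands and 0.41 in the darkest, while the order turned between gneg and gpos25, at -0.15, and between gpos75, at 0.45, and gpos100. The sign in dark bands depends on the scale. With library totals the medians were -0.99 in light bands and -0.33 in the darkest, and the mean contact per matched anchor in gpos100 bands was 123 and 126 CPM with H3K27ac and 97.2 and 94.1 CPM with ARID1A. The order from light to dark was the same, since in gneg bands these values were 165 and 166 CPM against 78.8 and 79.7 CPM. Over all contact ends, gpos100 bands took 4.60% and 4.64% with H3K27ac and 5.99% and 5.86% with ARID1A. The bands that differed most in share did not sort by light stain. Light bands made up 25 of the 39 with a ratio over 2, 21 of the 33 under 0.5 and 130 of all 219. Bands of gpos75 or gpos100 made up 7 of the 39 and 3 of the 33.

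**Figure D5:**
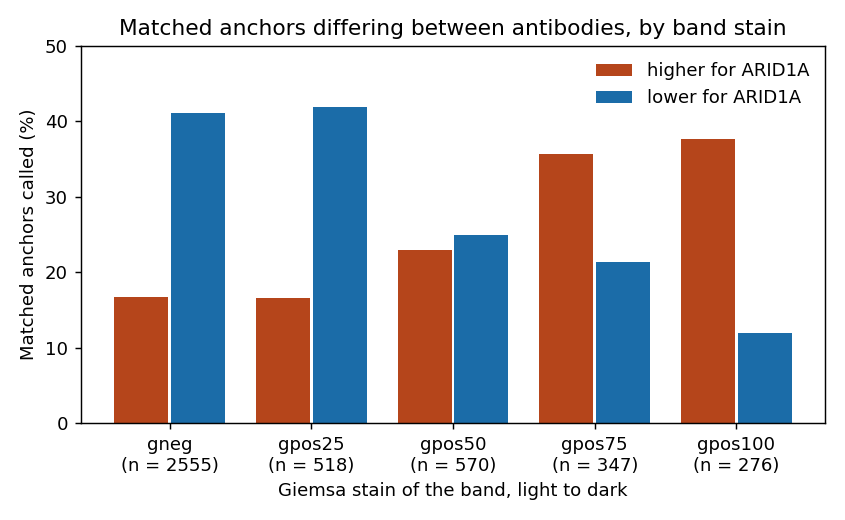
Percentage of matched anchors called higher or lower for ARID1A (edgeR, adjusted p under 0.05, TMM scale) by Giemsa stain of the band, with the number tested under each pair of bars. Calls go from 16.7% higher and 41.1% lower in gneg bands to 37.7% higher and 11.96% lower in gpos100 bands, while with library totals lower calls outnumber higher ones in every class.

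The chromosome and the earlier state of the region went with the calls too. On chromosome 19, 1.49% of the matched anchors were higher for ARID1A and 76.6% lower, with a median log2 fold change of -1.16, and on chromosome 4, 36.7% were higher and 14.8% lower, with a median of 0.23. With library totals the chromosome 4 median was -0.39 and the chromosome 19 median -1.79. Of the 2344 matched anchors with an H3K27ac anchor at day 0, 14.4% were higher for ARID1A and 47.5% lower, with a median of -0.46. Of the 1929 without one, 27.8% were higher and 20.9% lower, with a median of 0.10, which became -0.53 with library totals. Matched anchors with an H3K27ac anchor before SMARCB1 returned thus stood lower for ARID1A than the others on either scale, with a median of -1.08 with library totals. Among anchors at the minimum in all 4 libraries the medians were -0.25 with a day 0 anchor and 0.42 without. An overlap of 1 bp counted, and neither width nor the H3K27ac level, which enters the fold, was accounted for. All these medians are a description.

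Single loops gave fewer calls. Between anchors called with both antibodies, 28558 loops were tested and 33.1% called by edgeR's quasi-likelihood test, 4111 (14.4%) higher and 5334 (18.7%) lower for ARID1A. Which direction had more calls was not stable. Higher calls outnumbered lower ones with DESeq2 (2470 and 1714), thinned libraries (2536 and 2080), the replicate block (2979 and 2741) and the newer quasi-likelihood method of edgeR (3352 and 3239). They did so too without ARID1A replicate 1 (2266 and 1815) or ARID1A replicate 2 (2153 and 1696), though not without H3K27ac replicate 1 (1797 and 2303) or H3K27ac replicate 2 (1789 and 2264). Library totals gave 2623 higher and 10133 lower, and a deposited value of 0.01 or less 2047 and 4246. Of the loops tested, 62.7% reached the minimum of 4 PETs only in the H3K27ac libraries, and among the 8014 that reached it in all 4 libraries 2405 were higher and 1157 lower. That set leaves out 17906 loops that reached it in both H3K27ac libraries only, and 1476 in both ARID1A libraries only. Its split therefore depends on the filter. Between matched anchors, 24.6% of 5260 loops were called, 221 (4.2%) higher and 1072 (20.4%) lower, with a median log2 fold change of -0.73. Of these 5260 loops, 66.2% reached the minimum only in the H3K27ac libraries, so that loops lower for ARID1A entered more readily. Libraries of the antibodies did not overlap at 78.6% of them. Among the 1649 that reached it in all 4 libraries, 183 were called higher and 386 lower. Fitted on matched loops alone, 340 were higher and 331 lower, and with library totals 60 and 2271. Loop counts agreed more closely between replicates of an antibody than between antibodies: over the 28558 loops Pearson's r of log CPM was 0.894 for H3K27ac, 0.765 for ARID1A and 0.415 to 0.424 between them, across loops, which are not independent.

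The fold of a loop went with its span. Over matched loops the median log2 fold change was -0.07 at 5 to 20 kb, -0.59 at 100 to 200 kb and -1.69 at 1000 to 2000 kb, and the share called higher for ARID1A went from 16.3% of 312 loops to 0.319% of 313. With all libraries thinned to the same depth the medians were 0.04 at 5 to 20 kb and -1.44 at 1000 to 2000 kb, where 96 loops could be tested. Of the 5260 loops tested without thinning, 66.2% reached the minimum only in the H3K27ac libraries, and a filter was also applied after thinning. These medians therefore depend on which loops entered, and how much of their slope comes from that was not tested. The share of PETs by span in matched loops, which uses no filter on counts, differed in the same direction. At 5 to 20 kb it was 5.81% with H3K27ac and 7.46% with ARID1A, and at 1000 to 2000 kb 5.15% and 3.24%.

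The matched loop with the smallest p among those higher for ARID1A joined neighbouring anchors in MITF, a basic helix-loop-helix transcription factor, at 3p13 (chromosome 3, 69877181 to 69894934 and 69894934 to 69946418). It held 44 and 60 PETs in the deeper H3K27ac libraries, against 47 and 60 with ARID1A, or 57.2 ± 10.2 and 122 ± 14.8 CPM (SD, n = 2), a log2 fold change of 1.70 ± 0.20 (SE). Like the 5 other loops named in this direction, it lost the call with no filter on low counts, where the adjusted p of the 6 was between 0.17 and 0.26 (edgeR quasi-likelihood test). The COL5A2 anchor at 2q32.2 named above was joined to one 295.5 kb away by 17 and 17 PETs with H3K27ac and 22 and 27 with ARID1A. A loop at 2q31.1 ended in the METAP1D anchor named above and held 13 and 11 PETs against 18 and 20. A loop of 11.8 kb in NHLRC2 at 10q25.3 held 10 and 16 against 19 and 23. Short loops at 18p11.21 in SPIRE1, an actin nucleator, and at 10q26.12 rested on few H3K27ac PETs and entered the test only through the ARID1A libraries. The first held 0 and 1 PETs against 12 and 8, a ratio of 41.3 in CPM with a 95% exact counting interval from 6.61 to 1713. The second held none in either H3K27ac library against 6 and 8, which is at least 9.64-fold higher when 3 PETs over both H3K27ac libraries are taken as the floor.

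Among loops lower for ARID1A, 3 of the leading 6 shared the anchor at 2p21 (chromosome 2, 43145971 to 43183644). Its loop to an anchor 35.8 kb away held 457 and 496 PETs with H3K27ac and 31 and 31 with ARID1A, a log2 fold change of -2.28 ± 0.18 (SE). Its loop to the anchor over ZFP36L2, an mRNA decay factor (43438915 to 43462645), spanned 286 kb and held 241 and 291 against 15 and 19. At 5q31.2 a loop of 50.7 kb by CXXC5, a zinc-finger regulator of Wnt signalling, held 776 and 836 PETs against 77 and 80, or 890 and 179 CPM on average. At 9q32 a loop of 34.4 kb at RGS3, a regulator of G-protein signalling, held 654 and 647 against 66 and 66. At 9q34.11 a loop of 154.1 kb held 328 and 377 against 30 and 21. Libraries that do not overlap were a condition of the choice of these 6 loops, whose log2 fold changes lay between -2.31 and -1.64. With no filter on low counts 3 of them lost the call, the loop at 9q34.11 and 2 of the 3 at 2p21, at adjusted p between 0.083 and 0.10 (edgeR quasi-likelihood test).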

How the data were processed

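HiChIP was analysed in 2 H3K27ac and 2 ARID1A libraries of day 3, grouped by title. Anchors of the 2 H3K27ac libraries of day 0, labelled SMARCB1 -/-, were used only to mark regions with an H3K27ac anchor at day 0. The submitters' processing notes name HiC-Pro, Bowtie2 and hg19, without versions, and the loop caller is not given in the sources used here. The authors deposited, per loop, a count of PETs that is raw and not normalised, and a value from 0 to 1 with no header. The deposited value may be a p-value or q-value, which no source says, and loops at 0.01 or less were used only as an alternative. The files do not state whether coordinates count from 0 or 1. Depth ran from 435210 to 982141 PETs per library, and PETs without molecular identifiers are not independent molecules, so counting intervals cover counting error only.

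Overlapping anchors (1 bp or more) were joined in Python 3.11.15 with pandas 2.3.3, and PETs were summed per pair of merged anchors. Loops inside a merged anchor were left out, 5.22% and 5.19% of H3K27ac PETs and 2.88% and 2.84% of ARID1A PETs. Anchors with 10 or more PETs, and loops with 4 or more, in at least 2 libraries were tested with edgeR 4.0.16 (TMM, quasi-likelihood test, Benjamini-Hochberg adjustment over all anchors or loops called with both), and with DESeq2 1.42.0 as an alternative. TMM was applied to library sizes within the tested set, so folds exceed ratios of CPM where ARID1A is higher. The test was checked on simulated counts. Bands and stains come from the hg19 table of circlize 0.4.16, and chromosome Y was left out of these. Named anchors are the 12 matched anchors per direction with the largest fold (mean of 50 CPM or more, libraries not overlapping), the 12 anchors and 6 matched loops per direction with the smallest p, the 8 most contacted per antibody seen with that antibody alone, and the 5 with most partners. Members and lists were chosen with earlier results of these data known. All 50 gene symbols were found on the stated chromosome in the RefSeq GRCh38.p14 table, from which no coordinates were used. Numbers of protein-coding genes per chromosome come from that table, over hg19 lengths. The planned share of promoter contacts and the counts of gene lists need hg19 gene starts and were not run, and no sequence is printed. Alternatives were another scaling or tool, no filter, thinning, a stricter deposited value, other overlaps, the replicate block, and leaving out each library. A region that the rule names is not reported here.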

Additional observations from a re-analysis of the deposited data

How the results depend on the processing

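The class share, the span and the partner difference over all anchors kept their direction in the alternatives run, with ranges without 1 library of -28.2 to -28.0 percentage points, -18.0 to -16.8 kb and -1.29 to -1.01 partners. At anchors called with both antibodies the order of partners was turned, at 13.5 with H3K27ac and 13.997 with ARID1A. The share of contacts over 100 kb did not keep its direction: among loops at a deposited value of 0.01 or less the difference was 0.063 percentage points. That value also left fewer calls, 3739 anchors, 1275 matched anchors and 6293 loops. Loop calls depended on most choices. Against 9445 loops and 1293 matched loops, DESeq2 called 4184 and 428, tests with no filter on low counts 60 and 20, thinned libraries 4616 and 503, and library totals 2331 matched loops. Leaving out 1 library gave 3849 to 4100 loops, 449 to 758 matched loops, 5236 to 5904 anchors and 1716 to 1917 matched anchors, where fewer samples were fitted and the lone library was assumed to vary like the others. The newer quasi-likelihood method of edgeR, chosen after seeing the data, called 778 matched loops, and with thinned libraries 5180 loops and 590 matched loops. A fit on the matched set alone called 671 matched loops. Requiring an overlap of 50% gave 4720 matched anchors and 4268 matched loops called, and of 90% gave 564 and 69, from larger and smaller sets. The named matched loops kept their sign in each setting that could test them. Why the other settings differ was not tested. Replicate numbers did not pair the libraries: deviations of same-numbered libraries correlated at r = 0.014 over 11105 anchors. With the replicate block 5720 loops and 681 matched loops were called. Depth limits single loops, since 57.0% and 56.2% of ARID1A loops rest on 1 PET.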
